A study of Homo sapiens with 16 samples.

Results

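BRCA1, BRCA2, BARD1, RAD51AP1, XRCC2, BLM, EXO1, FANCA and FANCD2 are genes of homologous recombination and of the Fanconi anemia pathway. These 9 genes were chosen by name, as repair genes often described as repressed in hypoxia, with earlier results of these data known. Each was followed across all 8 groups of the study. All 9 were found in both tables, which list 13559 and 14024 genes. RNA came from LN229, an established human glioblastoma line, in 16 libraries with 2 per group. In the first experiment, untreated cells in regular culture were compared with untreated cells under an ischemic condition. That condition combined hypoxia with a medium low in glucose, glutamine and serum. In the second experiment, both cultures were treated with the solvent DMSO, with VX745, an inhibitor of the stress kinase p38α, or with MK25, an inhibitor of MK2, a kinase that p38 phosphorylates. The 6 groups of that experiment are named by culture and agent, and neither a dose nor a time is given in the labels. All groups share 1 parental line, so the values describe these cells and no other tumor. The labels number the 2 libraries of a group but do not say that they came from separate cultures, and p-values therefore measure only the spread between these libraries, which may be technical.

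Homologous recombination repairs double-strand breaks and broken replication forks by copying an intact sister strand. The ends are first cut back to single strands, the strands are then paired with the intact copy with the help of the BRCA proteins, and the joined molecules are finally taken apart by helicases and nucleases. The Fanconi anemia pathway unhooks crosslinks between the strands and hands the resulting breaks to the same machinery. Both are used mainly in S and G2 phase, and the loss of either makes cells sensitive to crosslinking drugs and to inhibitors of poly(ADP-ribose) polymerase.

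Between 20122017 and 37562668 reads per library lay on the listed genes, with medians of 24382773.5 for untreated cells and 28734191.5 for the inhibitor experiment. The 9 genes had 373 to 2394 reads in each untreated library and 432 to 2931 in each of the others, far above the floor of 3 reads, so none of them was lost to a filter on low values. The glioblastoma markers were all detected, 8 of 8, with VIM the highest. No library held a measured endothelial marker (0 of 4), and PTPRC, CD14 and CD3E were not among the genes of the tables, although some genes on other lists were measured, such as CD68 (2 of 5 on the leukocyte list), TUBB3 (3 of 4 on the neuron list) and KRT18 (2 of 4 on the epithelial list).

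The genes lie on 9 chromosomes of GRCh38. BRCA1 (Entrez 672) is annotated at chr17:43044295-43170327, BRCA2 (675) at chr13:32315077-32400268 and BARD1 (580) at chr2:214725646-214809683. RAD51AP1 (10635) is at chr12:4538890-4560047, XRCC2 (7516) at chr7:152644776-152676141 and BLM (641) at chr15:90717346-90816166. EXO1 (9156) is at chr1:241847986-241889939, FANCA (2175) at chr16:89737549-89816647 and FANCD2 (2177) at chr3:10026437-10101932. Their canonical transcripts range from 3 exons in XRCC2 to 44 in FANCD2 and from 2112 bases in RAD51AP1 to 11954 in BRCA2. An exon of FANCA overlaps ZNF276 on the opposite strand. FANCD2 overlaps FANCD2OS, and BLM overlaps a long noncoding RNA, in the same way. The library kit named in the labels does not mark strand and no strand setting for the counting is given, so reads of such overlapping stretches cannot be told apart. BRCA1, RAD51AP1 and FANCD2 also have pseudogene copies (BRCA1P1, RAD51AP1P1 and FANCD2P2), which were not analysed here, and the counting of reads shared with them is not given.

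Per length of transcript, EXO1, a nuclease that cuts back broken ends, was the most abundant of the 9. Its group means lay between 4.42 and 4.72 on the scale of log2 RPKM, the normalized CPM divided by the length of the canonical transcript in kilobases. FANCD2, the Fanconi protein that is ubiquitylated at crosslinks, followed at 3.87 to 4.04. BRCA2, a mediator of strand exchange, was the lowest in every group, with means of 1.24 to 1.70 on the same scale. In the 6 groups of the second experiment, the group means of log2 CPM spanned 0.08 units for FANCD2, 0.15 for BRCA2, 0.30 for EXO1 and 0.32 for FANCA. They spanned 0.45 for BRCA1, 0.65 for XRCC2, 0.69 for BLM, 0.70 for RAD51AP1 and 0.73 for BARD1.

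The promoters are shown because some of the members share a sequence feature there, and members with it differ in their response. In windows from 250 bases before to 50 bases after each RefSeq start (GRCh38.p14), 11 windows cover the 9 genes, since BRCA1 and EXO1 have 2 starts each. An 8-base E2F site (TTTCCCGC, TTTGGCGC, TTTGCCGC or TTTCGCGC on either strand) occurred in 4 of 11 windows (36.4%), against 3.31% of 35116 promoters of the same length. In the lines below, 5′ to 3′ on the strand of the gene, capitals mark the match within 30 bases.
FANCA, chr16:89816801-89816830, minus strand: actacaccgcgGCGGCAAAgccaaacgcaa
FANCD2, chr3:10026424-10026453, plus strand: cgtcgggcctgGCGGGAAAgtcgaaaacta
XRCC2, chr7:152676102-152676131, minus strand: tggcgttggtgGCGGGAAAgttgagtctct
EXO1, chr1:241848197-241848226, plus strand: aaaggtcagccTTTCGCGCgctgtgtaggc
Counted from the transcript start on which each window is built, the matches begin at −172 in FANCA, −2 in FANCD2, 21 in XRCC2 and 4 in EXO1. For BRCA2, EXO1 and 1 of the 2 BRCA1 windows that start lies inside the span given above, which covers all annotated transcripts. As described below, the 4 genes with a match included 1 that was lower in ischemic culture in all 4 comparisons (XRCC2) and 1 that passed the test in none of them (FANCD2).

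The CHR element (TTTGAA or TTTAAA) was in 2 of 11 windows (18.2%, all promoters 24.0%) and the CCAAT box in 4 of 11 (36.4%, all promoters 34.6%). The core of the hypoxia response element (ACGTG or GCGTG, either strand, which overlaps itself in CACGTG) was in 8 of 11 (72.7%, all promoters 48.4%). The BLM promoter is shown for its repeated CCAAT boxes, in capitals.
BLM, CCAAT box, chr15:90717296-90717333, plus strand: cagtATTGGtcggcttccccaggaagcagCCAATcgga
BRCA2 had 4 matches to the core, which 4.40% of all promoters reach, and BLM had 3 CCAAT boxes, of which the closer 2 are printed, as 3.26% of all promoters do. These are matches of letters and not sites of binding.

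Ischemic culture did not move the 9 genes as a block. RAD51AP1, XRCC2 and BLM were lower in ischemic than in regular culture in all 4 comparisons (untreated, DMSO, VX745 and MK25), and BARD1 was higher in all 4. BRCA1 was higher in 2 of the 4 (untreated and MK25), BRCA2 and FANCA were higher in 1 (untreated), EXO1 was lower in 1 (MK25), and FANCD2 passed the test in none. These 4 comparisons use separate libraries. Genes lower in all 4 made up 22.1% of the 13396 genes in both tables, counted by symbol. Genes higher in all 4 made up 23.0%. The 3 and 1 of 9 members are to be read beside these shares.

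**Figure D1:**
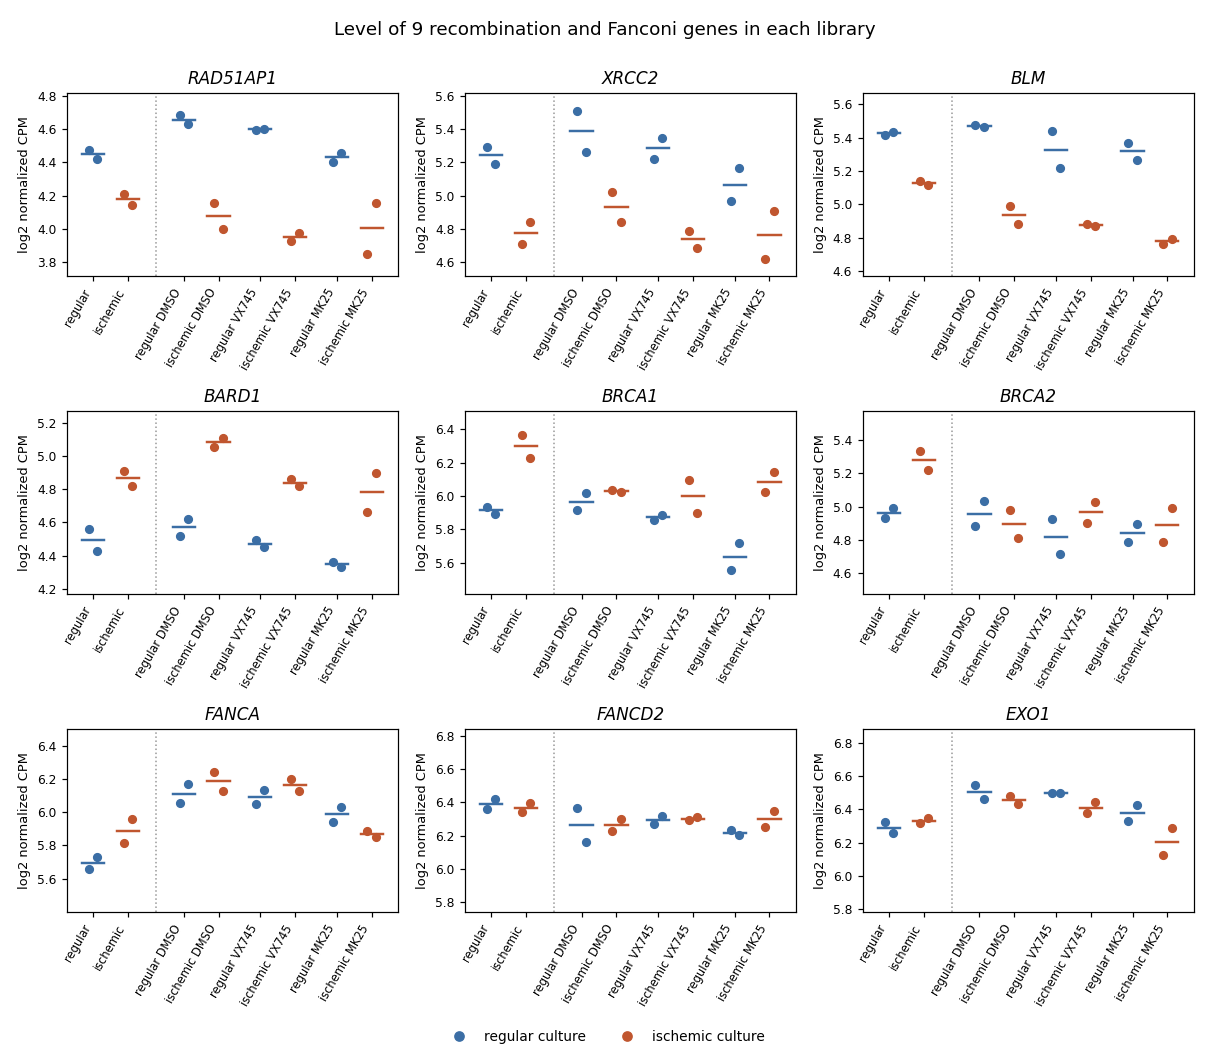
Level of each of the 9 genes in log2 normalized CPM (y axes, each spanning 1.1 units) in the 16 libraries by group (x axis), with points for libraries, bars for the mean of 2 libraries and a dotted line between the separately normalized experiments. The ischemic points of RAD51AP1, XRCC2 and BLM lie below the regular points of the same agent and those of BARD1 above, while FANCD2 stays between 6.16 and 6.42 throughout.

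RAD51AP1 encodes a protein that helps to pair a broken strand with the intact copy. Its log2 CPM was 4.48 and 4.42 in regular and 4.21 and 4.15 in ischemic untreated cells. With DMSO it was 4.68 and 4.63 in regular and 4.15 and 4.00 in ischemic culture. The groups did not overlap, and the difference was −0.27 (SE 0.10, limma adjusted p = 0.0234) in untreated cells and −0.58 (SE 0.10, adjusted p = 3.90e-05) with DMSO. With VX745 the gene was at 4.60 and 4.60 in regular and 3.93 and 3.98 in ischemic culture, a difference of −0.64 (SE 0.10). This was the largest ischemic difference of any of the 9 genes, at −36.0% (95% interval from −44.4% to −26.3%). With MK25 the regular libraries were at 4.40 and 4.46 and the ischemic ones at 3.85 and 4.16, again without overlap. In untreated cells the call was lost without ischemic replicate 2, regular replicate 1 or regular replicate 2, with adjusted p-values of up to 0.137.

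XRCC2, which acts in strand exchange, stood at 5.29 and 5.19 log2 CPM in regular and at 4.71 and 4.84 in ischemic untreated cells. The difference was −0.47 (SE 0.09, limma adjusted p = 0.000484), or −27.6%, the largest of the 9 genes in that experiment. With DMSO the values were 5.51 and 5.26 in regular and 5.02 and 4.84 in ischemic culture, with a difference of −0.46 (SE 0.11, adjusted p = 0.000945). With VX745 the gene fell by 0.55 (SE 0.11) on the log2 scale and with MK25 by 0.30 (SE 0.11, adjusted p = 0.0184). The last of these rested on values of 4.97 and 5.16 in regular against 4.62 and 4.91 in ischemic culture. The MK25 call was lost without ischemic MK25 replicate 1 or regular MK25 replicate 2, with adjusted p-values of up to 0.266, and without a trend of the variance (adjusted p = 0.0711), so that XRCC2 then passed in 3 of the 4 comparisons.

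BLM encodes the helicase that is mutated in Bloom syndrome and dissolves joined DNA molecules. Its log2 CPM was 5.42 and 5.43 in regular and 5.14 and 5.11 in ischemic untreated cells, a difference of −0.30 (SE 0.08, limma adjusted p = 0.00455). In the second experiment it fell by 0.53 with DMSO, 0.45 with VX745 and 0.54 with MK25 on the log2 scale (SE 0.08 in each). The 6 regular libraries of that experiment ranged from 5.21 to 5.48 and the 6 ischemic libraries from 4.76 to 4.99, so the cultures were separated whatever the agent. The profiles of BLM and RAD51AP1 over the 8 groups were the closest of any pair of members, with a root mean square distance of 0.058 log2 units after each gene was centred within its experiment.

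BARD1, the partner with which BRCA1 forms its ubiquitin ligase, went the other way. Its log2 CPM was 4.56 and 4.43 in regular and 4.91 and 4.82 in ischemic untreated cells. With DMSO it was 4.52 and 4.62 in regular and 5.05 and 5.11 in ischemic culture. The gene was higher by 0.37 (SE 0.09, limma adjusted p = 0.00337) and by 0.51 (SE 0.08, adjusted p = 2.76e-05), respectively, the latter a rise of 42.6% (95% interval 26.4% to 60.8%). Under VX745 the difference was 0.36 and under MK25 it was 0.43 (SE 0.08 in each). No ischemic library overlapped a regular library of the same experiment. BARD1 and RAD51AP1 were the 2 members whose profiles lay farthest apart, at 0.46.

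BRCA1, which directs broken ends toward recombination, was at 5.93 and 5.89 log2 CPM in regular and at 6.37 and 6.23 in ischemic untreated cells, higher by 0.39 (SE 0.08, limma adjusted p = 0.000612). With DMSO it was at 5.91 and 6.02 in regular and at 6.03 and 6.03 in ischemic culture, a difference of 0.06 (95% interval −0.09 to 0.22, adjusted p = 0.464). With VX745 the difference was 0.13 (interval −0.03 to 0.29, adjusted p = 0.143), or 0.23 without ischemic VX745 replicate 2. The libraries with VX745 were at 5.85 and 5.89 in regular and at 6.10 and 5.90 in ischemic culture. With MK25 the gene was again higher, by 0.45 (SE 0.08, adjusted p = 4.54e-05), with 5.55 and 5.72 in regular and 6.03 and 6.14 in ischemic culture. That group pair differed mainly through low regular MK25 libraries, since the ischemic mean of 6.08 was close to the 6.03 of ischemic DMSO.

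BRCA2 was at 4.93 and 4.99 log2 CPM in regular and at 5.33 and 5.22 in ischemic untreated cells, higher by 0.31 (SE 0.08, limma adjusted p = 0.00524). In the second experiment its groups overlapped with every agent, with differences of −0.06 (95% interval −0.26 to 0.14) for DMSO, 0.15 (interval −0.05 to 0.35) for VX745 and 0.05 (interval −0.15 to 0.25) for MK25. The 2 tables were normalized separately, and whether BRCA1 or BRCA2 responded differently in the 2 experiments was not tested.

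FANCA, a subunit of the Fanconi core complex, was at 5.66 and 5.73 in regular and at 5.81 and 5.96 in ischemic untreated cells. The difference of 0.19 (SE 0.08) had a limma adjusted p of 0.0485 and did not pass under 4 of the 6 other settings that keep all libraries, where the adjusted p reached 0.123. With DMSO and VX745 its difference was 0.07 in each (interval −0.06 to 0.21 and −0.07 to 0.21). With MK25 it was −0.12 (interval −0.26 to 0.02), and none of these passed. FANCD2 differed by −0.02 (interval −0.17 to 0.13) in untreated cells, by 0.00 (interval −0.14 to 0.14) with DMSO, by 0.01 (interval −0.13 to 0.15) with VX745 and by 0.08 (interval −0.06 to 0.22) with MK25. These intervals leave room for a change of at most 16.6% upward and −11.3% downward. EXO1 differed by 0.04 (interval −0.11 to 0.19) in untreated cells, by −0.05 with DMSO and by −0.09 with VX745. With MK25 it was lower by 0.17 (SE 0.06, adjusted p = 0.0256), with 6.33 and 6.43 in regular and 6.12 and 6.29 in ischemic culture. This call was lost without a trend of the variance, with only the groups compared, and without ischemic MK25 replicate 1 or regular MK25 replicate 2, with adjusted p-values of up to 0.300, and the difference between the responses with MK25 and DMSO did not pass (−0.12, adjusted p = 0.345).

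**Figure D2:**
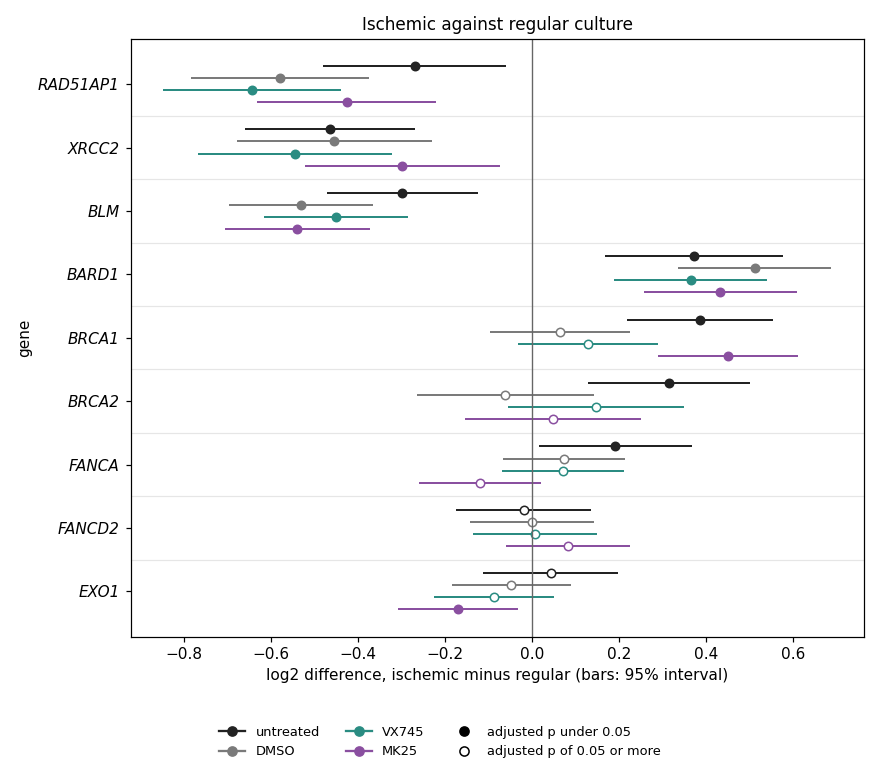
Difference in log2 CPM between ischemic and regular culture (x axis) for each of the 9 genes (y axis) with 4 agents, where dots are limma estimates, bars are 95% intervals and filled dots have an adjusted p under 0.05. The 4 estimates of RAD51AP1, XRCC2 and BLM lie between −0.64 and −0.27, those of BARD1 between 0.36 and 0.51 and those of FANCD2 between −0.02 and 0.08.

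In counts, 7 of 9 genes passed in untreated cells, 4 of them higher and 3 lower, where 70.4% of all genes did (35.2% lower and 35.2% higher). With DMSO 4 of 9 passed, 3 lower and 1 higher, against 69.6% of all genes (35.2% lower and 34.4% higher). With VX745 it was 4 of 9, again 3 lower and 1 higher, against 66.6% (32.6% lower and 34.0% higher). With MK25 it was 6 of 9, 4 lower and 2 higher, against 67.2% (33.7% lower and 33.5% higher). None of the 9 reached a 2-fold difference in any of these comparisons. Of all genes, 9.1% passed the test and were at least 2-fold lower and 11.3% at least 2-fold higher in untreated cells, 8.11% and 9.03% with DMSO, 5.21% and 9.28% under VX745, and 5.34% and 8.56% under MK25. The median size of the difference, without its sign, was 0.30 for the 9 genes and 0.49 for all genes in untreated cells, and 0.07 and 0.43 with DMSO. In untreated cells the count fell to 4 without regular replicate 1 and to 4 without regular replicate 2. RAD51AP1 and FANCA lost the call in both cases, BRCA2 without regular replicate 1 (limma adjusted p = 0.0533) and BARD1 without regular replicate 2 (adjusted p = 0.0510).

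Among the other genes of these pathways, more were lower than higher under ischemia. In untreated cells 35.2% of all genes were lower and 35.2% higher. Of 40 other recombination genes measured, 19 were lower and 10 higher in ischemic untreated cells, with a median difference of −0.25 log2 units against −0.01 for all genes. PALB2, which bridges BRCA1 and BRCA2, was lower by 0.71 (SE 0.09, limma adjusted p = 2.29e-05) and the checkpoint kinase ATR by 0.91. SWSAP1 was lower by 1.10. MUS81, a nuclease that cuts joined molecules, was higher by 1.03. Of 19 other Fanconi genes measured, 11 were lower and 4 higher, with a median of −0.49. FANCB of the core complex was lower by 1.21 and UBE2T, the enzyme that attaches ubiquitin to FANCD2, by 1.12, while WDR48, a cofactor of the enzyme that removes it, was higher by 0.69. FANCI, the partner of FANCD2, was higher by 0.21 (SE 0.07, limma adjusted p = 0.0162) in untreated cells. With DMSO it did not pass (0.07, limma adjusted p = 0.341), while PALB2, ATR and UBE2T were lower by 0.70, 1.19 and 0.67. Of 59 such genes tested in both experiments, 22 were lower and 8 higher in all 4 culture comparisons. Of all genes, 22.1% were lower and 23.0% higher in all 4. The genes FAN1, SLX1A and SHLD3 were not analysed here.

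Genes of replication moved in the same cultures, where 35.2% of all genes were lower and 35.2% higher in untreated cells. Of 21 S phase genes, 17 were lower and 1 higher in ischemic untreated cells (median −0.91), 15 and 2 with DMSO (−0.56). With either inhibitor 18 were lower and 1 higher, with medians of −0.68 for VX745 and −0.81 for MK25. The cyclin genes CCNE1 and CCNE2 fell by 2.48 and 1.89 in untreated cells. Of 15 genes of G2 and mitosis, 8 were lower and 1 higher in untreated cells (median −0.22), and with MK25 2 were lower and 8 higher (median 0.14). All 14 hypoxia genes were higher in untreated cells (median 4.29). Expression per cell and a shift in the share of cells in S phase cannot be told apart in such bulk libraries, and the part of S phase in the lower RAD51AP1, XRCC2 and BLM values was not tested. Of 20 regulators of the E2F family and the DREAM repressor, 10 were lower and 6 higher in untreated cells. The largest changes were in E2F2 (−2.22), TFDP1 (−1.23), E2F7 (1.74) and LIN37 (1.49). E2F1 was lower by 0.96 and E2F4 by 0.44, and RBL2, a pocket protein of the DREAM repressor, was higher by 0.37. CDK12, a kinase needed for the full transcription of long repair genes, was lower by 0.88 there. With DMSO the differences were −0.43 for E2F1, −0.39 for E2F4, 0.41 for RBL2 and −0.70 for CDK12.

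**Figure D3:**
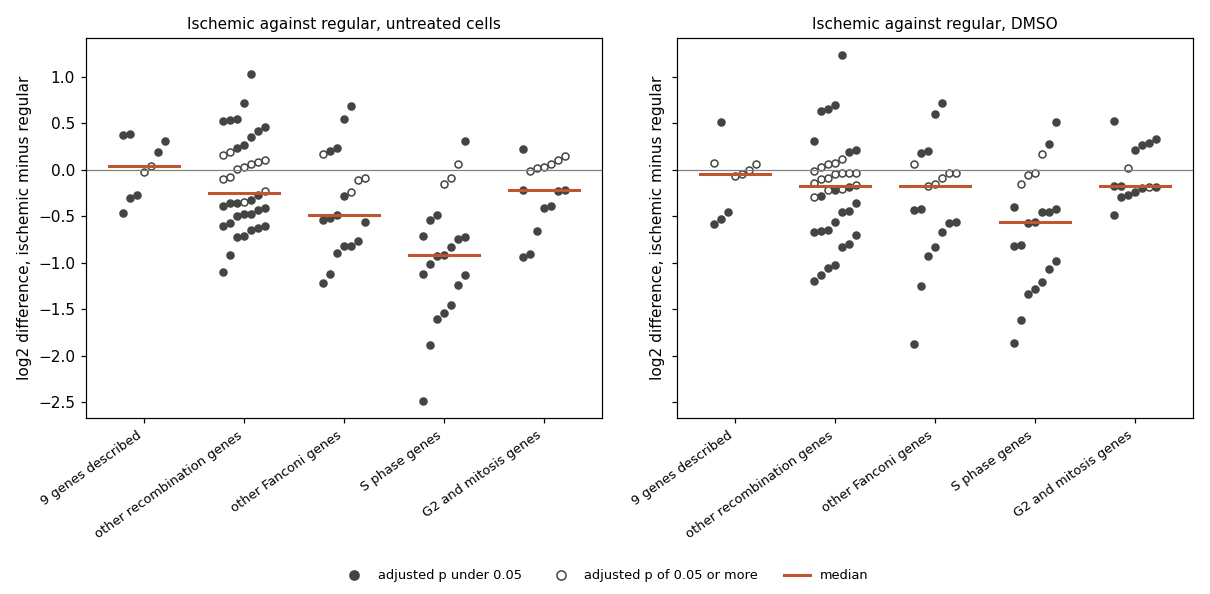
Difference in log2 CPM between ischemic and regular culture (y axis) for each gene of 5 lists (x axis), in untreated cells (left) and with DMSO (right), where filled dots have a limma adjusted p under 0.05 and bars are medians. The medians are 0.04 and −0.05 for the 9 genes, −0.91 and −0.56 for the S phase genes and −0.49 and −0.17 for the other Fanconi genes.

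Other repair pathways also had members on both sides in ischemic untreated cells, where 35.2% of all genes were lower and 35.2% higher. Among genes of non-homologous end joining, 5 of 14 were lower and 5 higher, with LIG4, the ligase of the pathway, lower by 1.56. In base excision repair 8 of 19 were lower and 3 higher, led by UNG, which removes uracil, at −2.62, and in nucleotide excision repair 9 of 18 were lower and 3 higher. In mismatch repair 2 of 6 were lower and 1 higher. The CDK12 and CDK13 complexes, which are not a repair pathway, had 1 of 3 genes lower and 1 higher.

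The inhibitors moved few of the 9 genes, and each gene that passed against DMSO was lower. Under ischemia, BARD1 alone was lower with VX745, 1 of 9 genes where 28.9% of all genes passed and 14.9% were lower. BARD1, FANCA and EXO1 were lower with MK25, 3 of 9 where 41.7% of all genes passed and 22.0% were lower. These comparisons share the ischemic DMSO libraries. BARD1 was at 5.05 and 5.11 log2 CPM with DMSO, at 4.86 and 4.82 with VX745 and at 4.66 and 4.90 with MK25, with no overlap with DMSO. It was lower by 0.24 (SE 0.08, limma adjusted p = 0.0345) with VX745 and by 0.30 (SE 0.08, adjusted p = 0.00743) with MK25, and its level stayed above the 4.52 and 4.62 of regular DMSO. The VX745 call was lost without any 1 of the 4 libraries compared, with adjusted p-values of up to 0.169. The MK25 call was lost without ischemic MK25 replicate 1 (adjusted p = 0.138) or ischemic DMSO replicate 2 (adjusted p = 0.0562).

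FANCA was at 6.24 and 6.13 log2 CPM in ischemic DMSO, at 6.20 and 6.13 in ischemic VX745 and at 5.89 and 5.85 in ischemic MK25, where both libraries lay below all others of that culture. The difference from DMSO was −0.32 (SE 0.07, limma adjusted p = 0.000988), or −19.7%. EXO1 was at 6.48 and 6.43 with DMSO, 6.38 and 6.44 with VX745 and 6.12 and 6.29 with MK25, lower than DMSO by 0.25 (SE 0.06, adjusted p = 0.00489). Compared with VX745 directly, MK25 gave lower values of FANCA, by 0.29 (adjusted p = 0.00415), and of EXO1, by 0.20 (adjusted p = 0.0337), under ischemia, which is 2 of 9 genes where 18.4% of all genes passed and 10.2% were lower. Without ischemic MK25 replicate 1, only FANCA of the 3 still passed against DMSO. Without ischemic VX745 replicate 1, neither gene passed against VX745 (adjusted p = 0.0669 for FANCA and 0.0839 for EXO1), and EXO1 did not pass without ischemic VX745 replicate 2 or ischemic MK25 replicate 1 either (up to 0.323).

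None of the genes that were lower under ischemia in all 4 comparisons passed the test with either inhibitor. Against ischemic DMSO, RAD51AP1 differed by −0.12 (95% interval −0.33 to 0.08) with VX745 and by −0.07 (interval −0.28 to 0.13) with MK25. XRCC2 differed by −0.19 (interval −0.42 to 0.03) and −0.17 (interval −0.39 to 0.06), and BLM by −0.06 (interval −0.22 to 0.10) and −0.16 (interval −0.32 to 0.01). Their upper limits, at most 0.13, lie below the 0.46 to 0.58 by which the 3 genes fell under ischemia with DMSO. With MK25, 16 of 21 S phase genes were lower under ischemia (median −0.32), and 7 of 21 with VX745 (median −0.13), and their part in the lower EXO1 and FANCA values was not tested. Of the 40 other recombination genes, 10 were lower and 3 higher with MK25 and 7 and 3 with VX745. Of all genes, 22.0% were lower with MK25 and 14.9% with VX745. MUS81 was lower by 0.46 with MK25 and by 0.43 with VX745, and SLX4, a scaffold of nucleases, was higher by 0.54 and 0.37.

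In regular culture, VX745 changed 0 of 9 genes, where 0.335% of all genes passed by limma. The count was also 0 at an unadjusted p under 0.05, where 14.8% of all genes passed, and 0 by limma-voom on the recovered reads. BRCA1 was lower with MK25, 1 of 9 genes where 12.2% of all genes passed and 5.21% were lower. BRCA1 was at 5.91 and 6.02 log2 CPM in regular DMSO, 5.85 and 5.89 in regular VX745 and 5.55 and 5.72 in regular MK25, which were the lowest 2 of the 12 libraries. The difference from DMSO was −0.33 (SE 0.08, limma adjusted p = 0.00792), or −20.5% (95% interval from −28.8% to −11.3%). It did not pass without regular MK25 replicate 1 or without regular DMSO replicate 2, with adjusted p-values of up to 0.0923. At an unadjusted p under 0.05, where 27.6% of all genes passed, RAD51AP1 (−0.23), BARD1 (−0.22) and XRCC2 (−0.32) would be added. All 9 differences were below 0, as were 8 of 9 for VX745, which was compared with the same regular DMSO libraries. Of these, only BRCA1 with MK25 passed by adjusted p. The median was −0.15 with MK25 and −0.10 with VX745, against 0.002 and −0.006 for all genes. The share of all genes below 0 was not counted, so no shift of the set is read from these signs. XRCC2 was near the threshold (limma adjusted p = 0.0547) and passed once any 1 of 4 libraries was left out, namely ischemic MK25 replicate 1 or 2, regular MK25 replicate 2 or regular DMSO replicate 2 (0.0393 to 0.0436), and with libraries centred on their median. MK25 against VX745 passed for 0 of 9 genes in regular culture by limma and by limma-voom, where 5.39% of all genes passed, and for BRCA1 alone (−0.24) at an unadjusted p under 0.05, where 17.6% of all genes passed. No gene of the 9 differed by 1.5-fold in any of these comparisons. Of all genes, 5.26% passed the test with at least that difference for VX745 and 9.67% for MK25 against DMSO under ischemia, 0.0998% and 2.49% in regular culture, and 3.96% and 1.46% for MK25 against VX745 under ischemia and in regular culture.

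**Figure D4:**
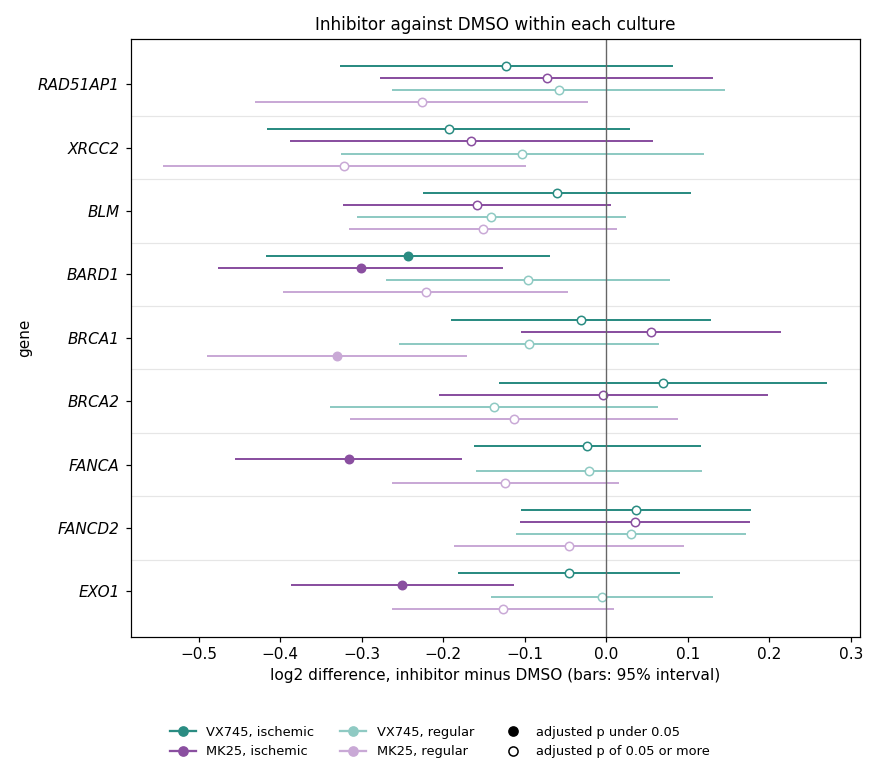
Difference in log2 CPM between each inhibitor and DMSO (x axis) for each of the 9 genes (y axis), in ischemic and regular culture, where dots are limma estimates, bars are 95% intervals and filled dots have an adjusted p under 0.05. The 5 filled dots are BARD1 with VX745 (−0.24), BARD1, FANCA and EXO1 with MK25 under ischemia (−0.30, −0.32 and −0.25) and BRCA1 with MK25 in regular culture (−0.33).

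By limma with the variance trend, the effect of MK25 on BRCA1 differed between the cultures. This call was lost without that trend and in some fits with a library left out, as listed below. The effect was −0.33 in regular and 0.06 (95% interval −0.10 to 0.21) in ischemic culture, an interaction of 0.39 (SE 0.11, limma adjusted p = 0.0135). BRCA1 was 1 of 9 genes to pass, where 24.4% of all genes did, 10.5% with a positive interaction. The interaction with VX745 passed for 0 of 9 genes, where 11.8% of all genes passed by limma. It was also 0 at an unadjusted p under 0.05, where 27.2% of all genes passed, and 0 by limma-voom. In the same regular MK25 libraries 13 of 14 hypoxia genes were higher than with DMSO (median 0.92), while BRCA1 was lower there. Of all genes, 12.2% passed in that comparison and 5.21% were lower. In ischemic against regular culture BRCA1 was higher in untreated cells (0.39) and with MK25 (0.45). It did not pass with DMSO (0.06) or VX745 (0.13). The part of the hypoxia genes in the BRCA1 value was not tested.

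Ordered by their means in the second experiment, the 3 regular groups stood above the 3 ischemic groups for RAD51AP1, XRCC2 and BLM, with regular DMSO highest in each. Neighboring groups in that order did not differ beyond their 95% intervals except at the step between the cultures for RAD51AP1 and BLM. XRCC2 had no such step. For BARD1 the order was ischemic DMSO, ischemic VX745, ischemic MK25 and then the regular groups, with intervals that exclude 0 at the first step and at the step between the cultures. For BRCA1 the only such step was that from regular VX745 down to regular MK25, and for EXO1 it was that from regular MK25 down to ischemic MK25. BRCA2, FANCA and FANCD2 had none.

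Outside the pathway, the genes whose profile over the 8 groups was most like the mean of the 9 were DROSHA, HIPK1, USP47, THADA and TMPRSS15, of 13387 genes in both tables, at root mean square distances of 0.025 to 0.033 log2 units. The mean profile itself spans little, from −0.11 in ischemic MK25 to 0.13 in regular DMSO around the mean of that experiment. Taken singly, the nearest gene was APEX2 for RAD51AP1 (0.031), PRPS2 for BLM (0.027), ZNRF2 for BARD1 (0.038) and TPT1-AS1 for BRCA1 (0.035). The nearest members to each other after RAD51AP1 and BLM were FANCA and EXO1 (0.065) and RAD51AP1 and XRCC2 (0.078).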

How the data were processed

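RNA-seq libraries of LN229 cells were read on an Illumina instrument as paired ends. In Galaxy, the authors trimmed and aligned reads (HISAT2, GRCh38), counted them per gene and deposited log2 normalized CPM, with edgeR the tool named for differences in expression. The counting program, annotation version and strand setting are not given in the sources used here. The log2 values were used as deposited and the 2 tables were fitted apart. Unlogged values lie on whole reads in 100% of cases (tolerance 0.05 reads), which gave reads per gene. Reads carry no molecular identifiers, so the floor of 3 reads covers counting error only. Symbols matched 99.4% and 99.3% of the Entrez identifiers.

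Differences, SEs, 95% intervals and two-sided p-values came from limma 3.58.1 (R 4.3.3), with 1 mean per group and a variance trend, adjusted by Benjamini-Hochberg over all genes of a table, and a gene was called at an adjusted p under 0.05. The study's own test takes counts, so the log-scale test replaced it. There were 12 comparisons, namely ischemic against regular culture with each of 4 agents, each inhibitor against DMSO and against each other in each culture, and the interactions. The script was tested on simulated data. Per-length values use the canonical GENCODE transcript. Gene spans and promoters are RefSeq's on GRCh38.p14, and the windows, found for all 9 genes, are set on single transcript starts that can lie inside the span. Genes of the lists were named if among the 2 largest falls or rises of a list, or as known partners and regulators, and some genes that this selects are not reported here. The members and lists were chosen with earlier results of these data known. Alternatives were a fold threshold, an unadjusted p, a mean of at least 1 CPM, median centring, quantile normalization, no variance trend, a replicate block, limma-voom on recovered reads, only the groups compared and each library left out. Figures used Python 3.11.15 and matplotlib 3.10.9.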

Additional observations from a re-analysis of the deposited data

Results flagged for a closer look

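The effect of MK25 on BRCA1 differed between ischemic and regular culture. The interaction was 0.386 log2 units (SE 0.11, limma adjusted p = 0.0135), with BRCA1 lower with MK25 in both regular libraries (5.55 and 5.72 against 5.91 and 6.02 log2 CPM with DMSO) and close to DMSO in the ischemic ones (6.03 and 6.14 against 6.03 and 6.03). The call was lost without ischemic MK25 replicate 2, regular MK25 replicate 1 or regular DMSO replicate 2, where the adjusted p reached 0.0661, and without the variance trend. Groups hold 2 libraries, so no library could be tested as standing apart from its group.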

How the results depend on the processing

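Of 1971 values of single genes under alternatives, 1925 kept their side of the threshold, 40 lost the call and 6 gained it. The sign changed in 73 of them, all for differences that were not called, and in 0 of those called. No gene reached 2-fold between cultures, so that count became 0 in each of the 4 culture comparisons, and no gene reached 1.5-fold with an inhibitor, so it became 0 for VX745 under ischemia, for MK25 in either culture and for MK25 against VX745 under ischemia. Without the variance trend the counts were 0 for VX745 under ischemia, 0 for MK25 in regular culture, 0 for the MK25 interaction and 1 for MK25 against VX745 under ischemia, and those of the cultures were 6 in untreated cells and 4 with MK25, where XRCC2 and EXO1 were lost. Quantile normalization gave 1 for the last of these, and median centring gave 2 for MK25 in regular culture, adding XRCC2. An unadjusted p gave 4 for MK25 and 1 for MK25 against VX745 in regular culture. With each library left out, the count of genes was 4 to 7 in untreated cells, 4 with DMSO, 4 to 5 with VX745 and 4 to 6 with MK25 for the cultures. For the inhibitors it was 0 to 1 for VX745 and 1 to 3 for MK25 under ischemia, 0 to 2 for MK25 in regular culture, 0 to 2 for MK25 against VX745 under ischemia and 0 to 1 for the MK25 interaction. The replicate numbers pair no samples by their labels, and deviations of same-numbered libraries correlated at 0.17 in the 1 pair of groups of the first experiment and at −0.12 to 0.14 in the 15 pairs of the second. A fit with a replicate block gave 7 genes in untreated cells, 4, 4 and 6 for the other cultures and the same counts as without it for the inhibitors. The median-centred and quantile scalings shifted the median difference between cultures by −0.04 and −0.02 to −0.03, and turned no called direction. With 2 libraries per group, changes well under 1.5-fold are at the limit of what these data can show.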
